A study of Mus musculus with 6 samples.

Results

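Rab GTPases are small GTP-binding proteins that give each membrane compartment of the cell its identity and direct vesicles between compartments. The 59 Rab genes described here are the protein-coding genes of the GENCODE annotation of the mouse genome (GRCm38) whose symbol is Rab followed by a number and at most 1 letter, out of 21938 protein-coding genes, and they lie on 18 chromosomes. H3K27ac, an acetylated form of histone H3 found at active promoters and enhancers, was mapped by ChIP-seq with the antibody ab4729 in mouse embryonic stem cells (mESCs). All groups came from 1 line, E14Tg2A Rosa26-Cre Oct4-IRES-Puro, grown in N2B27 medium with LIF and the inhibitors PD0325901 and CT-99021, and chromatin of human HEK293 cells was added as a spike-in. For 120 min, 2 control samples received DMSO, 2 samples received 100 nM of the CDK9 inhibitor NVP-2 and 2 received actinomycin D (ActD). The labels give the ActD dose as 800 nM. The treatment label of the controls is Control without a time, and their DMSO and its duration follow the authors' methods. The deposited file analysed here holds 22973 peaks of the control cells, in 1 list for both control samples together. Each peak has a chromosome, a start and an end, with no height, count or depth, so no value has a replicate error, no test was made and samples treated with NVP-2 or ActD were not analysed here. In bulk chromatin, a mark on fewer cells and a weaker mark on every cell cannot be told apart.

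A Rab protein cycles between a GTP-bound form, which recruits effectors such as tethers, motors and coat adaptors to a membrane, and a GDP-bound form that is taken back into the cytosol. Guanine nucleotide exchange factors (GEFs) switch a Rab on, GTPase-activating proteins (GAPs) switch it off, and escort proteins, prenyl transferases and GDP dissociation inhibitors attach it to membranes and retrieve it. Some Rabs serve steps that every cell needs, such as transport from the endoplasmic reticulum (ER) to the Golgi or endosome recycling, whereas others serve regulated secretion in neurons, glands and immune cells, or pigment granules and epithelial polarity.

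A promoter was called marked if a control peak overlapped the interval of 1 kb on either side of any transcription start site (TSS) of the gene by at least 1 bp. By this rule the promoters of 10 of 11 embryonic stem cell markers were marked, against 51.9% of all protein-coding genes, including Pou5f1, Nanog, Sox2, Zfp42, Esrrb and Tfcp2l1, and Klf4 was not. The neuron markers were marked at 5 of 10 promoters (Syp, Stmn2, Gad1, Vamp2 and Stx1a), while Syt1, Snap25, Syn1, Rbfox3 and Slc17a7 had no promoter peak, a share near that of all genes. Among 10 markers of endocrine or exocrine cells, Pcsk1 alone was marked, by a peak 809 bp wide. Esrrb and Syp had a peak only at a TSS other than that of the longest isoform, which alone gave 9 of 11 stem cell and 4 of 10 neuron markers. Pou5f1, Nanog and Sox2, defining markers of the labelled cell type, thus all had a promoter peak.

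Of the 59 Rab promoters, 43 were marked, or 72.9% (95% Wilson interval 60.4 to 82.6%), against 51.9% of all protein-coding genes. With the TSS of the longest isoform alone, the same 43 Rab promoters were marked and the share of all protein-coding genes was 48.7%. The intervals cover counting error over genes only. The groups below were chosen with earlier results of these data known, so their shares and the difference between them are descriptions. Rabs known to act in nearly every cell type and Rabs known for secretory or neuronal cells had different shares. Among 20 ubiquitous Rabs, 19 were marked, or 95.0% (76.4 to 99.1%), and Rab18 was the exception. Among 12 secretory or neuronal Rabs, 5 were marked, or 41.7% (19.3 to 68.0%). The difference was 53.3 percentage points, with a Newcombe interval of 21.0 to 76.0. Of these, 2 of 8 secretory Rabs were marked (25.0%, 7.15 to 59.1%) and 3 of 4 neuronal Rabs (75.0%, 30.1 to 95.4%). The intervals of these 2 shares overlap, and their difference was not tested. The 51.9% of all protein-coding genes lies inside both, and inside the interval of the 12 together. Against the ubiquitous Rabs, the difference was 70.0 points for the secretory members and 20.0 points for the neuronal members. Rabs named for epithelial cells or for lysosome-related organelles were marked at 3 of 6 promoters, near the share of all genes, and the remaining 21 Rabs at 16 (76.2%, 54.9 to 89.4%).

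**Figure D1:**
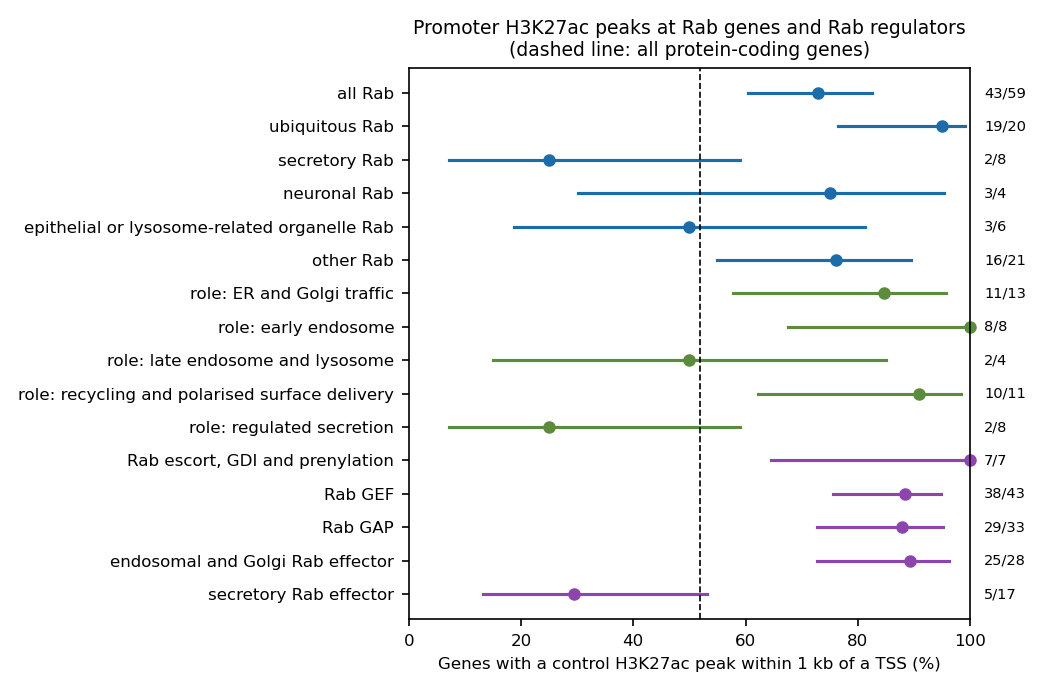
Share of genes with a control H3K27ac peak within 1 kb of a TSS (x axis, percent) for groups of Rab genes (blue), Rabs grouped by role (green) and Rab regulators and effectors (purple). Points are shares, lines are 95% Wilson intervals for counting error, and counts stand at the right. The dashed line is the share of all protein-coding genes, 51.9%. To its left lie the secretory Rabs, the secretory effectors, the epithelial or lysosome-related organelle Rabs and the late endosome and lysosome role. Their intervals all cross it. The role of regulated secretion holds the same 8 genes as the secretory Rabs, which therefore appear again in green.

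Rabs of the ER and the Golgi were marked at 11 of 13 promoters (84.6%, interval 57.8 to 95.7%), against 51.9% of all protein-coding genes. Rab1a and Rab1b, which act in transport from the ER to the Golgi, both carried a peak, but of unequal size. The peak at Rab1a spanned 10669 bp (chr11:20194711-20205379) and reached 6721 bp upstream and 3947 bp downstream of the TSS, whereas that at Rab1b spanned 1119 bp and began 68 bp upstream. Rab2a, which acts between the ER-Golgi intermediate compartment and the Golgi, had a peak of 1224 bp that began 50 bp downstream of its single TSS, so the TSS itself lay outside the peak. Its paralogue Rab2b had a peak of 2221 bp that also held the TSS of Tox4. Rab6a, which acts in retrograde transport to the Golgi and the ER, had a peak of 2399 bp, shared with the TSS of Mrpl48. Both Rab33 genes were marked, Rab33b with 1832 bp, as were Rab30, Rab34 and Rab43, with peaks of 5236, 2098 and 1149 bp.

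Rab18, a Rab of the ER and lipid droplets, was the unmarked ubiquitous member. None of its 5 annotated TSS had a peak within 1 kb or 2 kb, there was no peak in its 60525 bp gene, and no peak lay within 100 kb of it. The nearest peak was 217 kb upstream, at the promoter of Epc1. Of the unmarked protein-coding genes, 76.5% had a nearer peak. The list was not empty on that chromosome: it held 711 peaks there and marked 287 of 513 protein-coding genes, or 55.9%. The ratio of CpG dinucleotides found to those given by the C and G content was 0.17 in the kilobase around the TSS of its longest isoform and at most 0.64 around its other TSS. A promoter that fell below the authors' height filter, one whose peak lay away from open chromatin and one without signal cannot be told apart in the list. Rab36, the other unmarked member of the Golgi group, had its nearest peak 23.5 kb downstream, at Bcr.

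All 8 Rabs of early endosomes were marked (interval 67.6 to 100%), against 51.9% of all protein-coding genes. Rab5a, Rab5b and Rab5c, which drive fusion of early endosomes, had peaks of 6473, 30501 and 3100 bp. The Rab5b peak (chr10:128685845-128716345) covered 54.6% of the gene and extended 20081 bp upstream over the TSS of Cdk2 and Pmel, so its width cannot be assigned to Rab5b alone. Rab4a and Rab4b, which act in fast recycling to the plasma membrane, had peaks of 9253 and 8521 bp, most of it downstream of the TSS (8603 and 6024 bp), and the Rab4b peak also held the TSS of Mia and Gm21983. Rab21 and Rab22a, which act in integrin traffic and in early endosome sorting, had compact peaks of 1911 and 2168 bp. Rab31, a relative of Rab22a, had a narrow promoter peak of 1126 bp, but 3 further peaks of 4844, 8549 and 1882 bp lay inside the gene, centred 35.3 to 69.1 kb downstream of the TSS.

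Rabs of late endosomes and lysosomes were split within each pair of paralogues. Rab7, which directs maturation and fusion of late endosomes with lysosomes, had a peak of 2812 bp, and Rab7b had none, the nearest lying 55.1 kb downstream at Slc26a9. Rab9, which acts in transport from late endosomes to the trans-Golgi network, lay wholly inside a peak of 30987 bp (chrX:166453422-166484408), the widest at any Rab promoter that held no TSS of another gene. Rab9b, on the same chromosome, had a single TSS without a peak, and the nearest peak was 74.1 kb away. Of the 4 Rab genes on the X chromosome, 2 were marked, where 32.4% of all protein-coding genes of that chromosome were.

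Rabs of recycling endosomes and of delivery to the cell surface were marked at 10 of 11 promoters (90.9%, interval 62.3 to 98.4%), against 51.9% of all protein-coding genes. Rab8a and Rab10, which act in exocytosis to the plasma membrane and in ciliogenesis or glucose transporter delivery, had peaks of 6165 and 3553 bp. Rab11a and Rab11b, the main Rabs of the recycling endosome, had peaks of 4204 and 3768 bp. Both Rab11 genes thus had peaks above the median of marked protein-coding genes, 2304 bp. Rab14 and Rab35, which act between the Golgi and endosomes and in fast endocytic recycling, had peaks of 2036 and 1888 bp, and the Rab35 peak also held a TSS of 1110006O24Rik. Rab14 had 12 distinct TSS, of which 7 had a peak. Rab8b, the paralogue of Rab8a, had the narrowest value of the family for the widest promoter peak per gene, 518 bp, which began 22 bp downstream of its TSS. Among the epithelial members, Rab13 of tight junctions had a peak of 7802 bp that also held the TSS of Rps27 and a further one of 1915 bp at another of its TSS, whereas Rab17 was unmarked with its nearest peak 67.7 kb downstream.

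Rab25, an epithelial relative of Rab11, lay inside the widest Rab promoter peak, 70157 bp (chr3:88525315-88595471). It covered all of the 6272 bp gene and reached 47171 bp upstream and 22985 bp downstream of the TSS. The same peak held TSS of Lamtor2, Ssr2, Ubqln4, Mex3a and Gm37584, and 63885 bp of it lay outside Rab25. The mark at Rab25 can therefore not be told apart from that of its neighbours. The CpG ratio around the Rab25 TSS was 0.29.

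Of the 8 Rabs of regulated secretion, Rab3a and Rab26 were marked, and the interval of this share, 7.15 to 59.1%, includes the 51.9% of all protein-coding genes. Rab3a, the main Rab of synaptic vesicles, had a peak of 2669 bp (chr8:70753071-70755739) that covered the whole window, with 1608 bp upstream and 1060 bp downstream of the TSS, all 6 of its TSS lying within 1 kb of it. Rab26, a Rab of secretory granules and synaptic vesicles, had a peak of 692 bp that began 78 bp downstream of the TSS of its longest isoform, and another of 3385 bp near other TSS of the gene. The paralogues Rab3b, Rab3c and Rab3d, which serve exocytosis in neuronal, endocrine and exocrine cells, had no promoter peak at any of their 4, 4 and 5 TSS. Rab3d had the nearest peak of these, 5.01 kb upstream at Tmem205 and Ccdc159, Rab3b had it 30.2 kb upstream at Kti12, and Rab3c 114 kb upstream at Plk2. No peak lay within 100 kb of the Rab3c TSS or inside its gene of 226810 bp.

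Rab27a and Rab27b, which dock secretory granules and melanosomes at the plasma membrane, were both unmarked, but their surroundings differed. Rab27a had a peak 4.01 kb upstream at the promoter of Pigb, 12 peaks within 100 kb and 3 peaks inside the gene, of 1162, 230 and 1250 bp, centred 26.1 to 40.5 kb downstream of its TSS. Rab27b had no peak within 100 kb of the TSS of its longest isoform or in its gene of 162475 bp, and the nearest was 215 kb downstream of that TSS at Ccdc68. Rab37, known from mast cell granules, had a peak of 4226 bp inside the gene, 9.74 kb downstream of the TSS. So an unmarked secretory promoter was found both in regions with peaks and in regions without any.

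Among the neuronal Rabs, Rab6b, Rab15 and Rab33a were marked. Rab6b, the neuronal counterpart of Rab6a, had a promoter peak of 1145 bp and further peaks of 7948 and 2842 bp in the gene, centred 25.4 and 34.5 kb downstream. Rab15, an endosomal Rab known from neurons, had a peak of 9364 bp, of which 8906 bp lay downstream of the TSS of its longest isoform and 8479 bp was intronic. Rab33a, a Golgi Rab of brain and immune cells, had a peak of 2251 bp, about centred on its TSS (1117 bp upstream and 1133 bp downstream). Rab39b, a neuronal Rab whose loss is linked to intellectual disability, was unmarked and its nearest peak was 61.5 kb downstream at Vbp1.

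Among the Rabs with a role in lysosome-related organelles, Rab29 and Rab38 had peaks of 2022 and 1439 bp. Roles were assigned apart from the groups compared first, in which Rab29 was counted among the remaining Rabs. Rab32, which acts with Rab38 in melanosome formation, was unmarked and was the most isolated Rab gene, with the nearest peak 591 kb upstream at Shprh, and 91.0% of all unmarked protein-coding genes had a nearer one. The ciliary Rabs Rab23, a negative regulator of Hedgehog signalling, and Rab28 had peaks of 1500 and 1562 bp. Rab24, a Rab linked to autophagy, had a peak of 18827 bp, of which 18117 bp lay upstream over the TSS of Mxd3 and Prelid1. Rab12, which acts in degradation of the transferrin receptor, had one of 10707 bp, almost all downstream (10276 bp), and Rab19 one of 10149 bp, almost all upstream (9701 bp) and shared with the TSS of Slc37a3. Rab40c, Rab42 and Rab44 were marked with 2559, 7481 and 1495 bp. Rab20 of phagosomes, Rab39 and Rab40b were not, with nearest peaks 18.1, 13.2 and 33.0 kb away, that of Rab39 lying inside its gene.

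Over the 43 marked Rab genes, the widest promoter peak per gene had a median of 2669 bp (quartiles 1860 and 7641.5 bp, range 518 to 70157 bp), against 2304 bp at all marked protein-coding genes. The median was 3553 bp at the ubiquitous members and 2669 bp at the secretory or neuronal members. The authors merged peaks within 2 kb of each other, so a width can join several sites. A peak of 10 kb or wider was found at 7 Rab genes, and 4 of these (Rab5b, Rab19, Rab24 and Rab25) held the TSS of another gene. The others were Rab1a, Rab9 and Rab12. The widest promoter peak was under 1500 bp at 8 Rab genes. In all, 9 of the 43 marked genes shared the peak with the TSS of another gene, 4 of them ubiquitous, and 34 did not. The TSS of the longest isoform lay inside the peak at 40 of the 43 genes, all but Rab2a, Rab8b and Rab26. At 32 of 43 genes the peak extended further downstream than upstream of that TSS, with medians of 1382 and 838 bp.

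**Figure D2:**
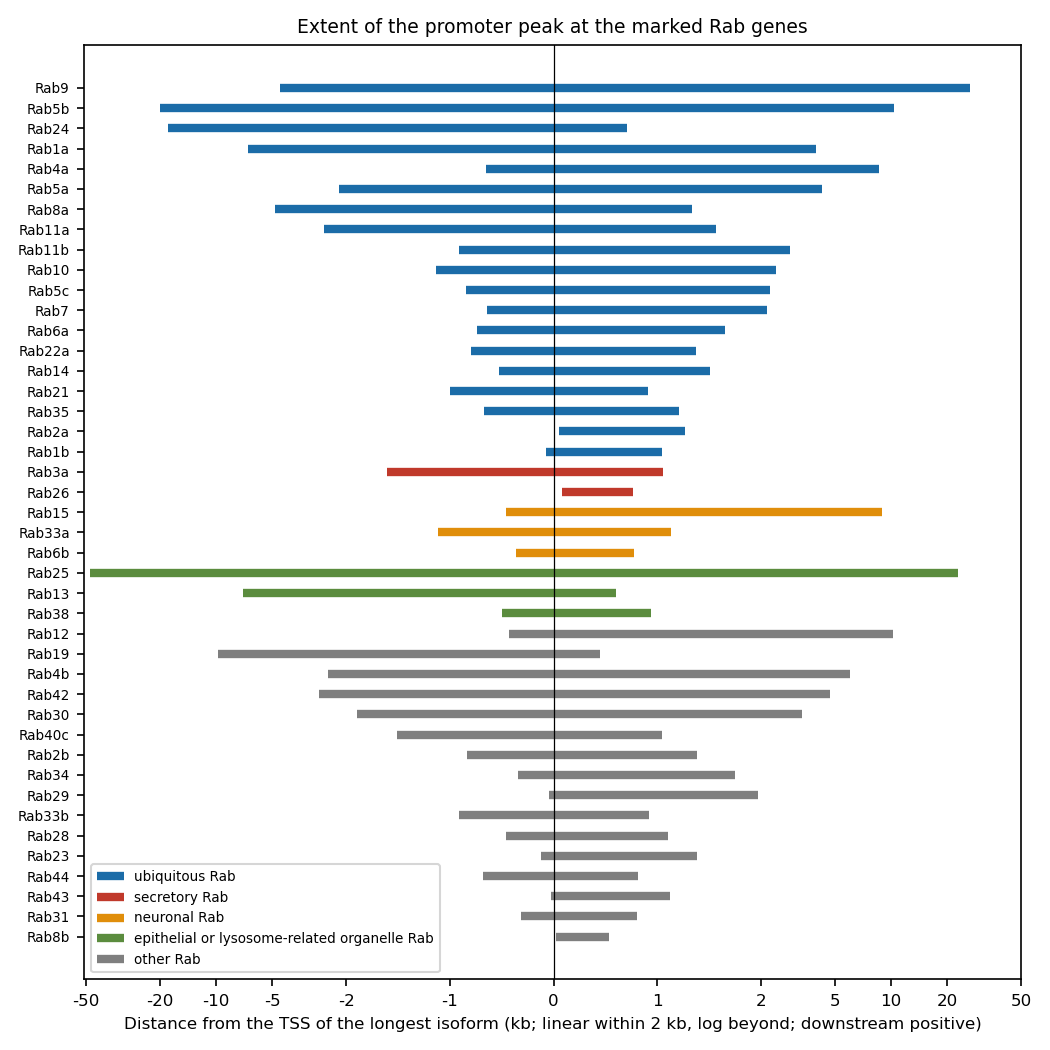
Extent of the promoter peak at the 43 marked Rab genes, as distance from the TSS of the longest isoform in kb (x axis, linear within 2 kb and logarithmic beyond), coloured by group and sorted by width within it. Most peaks lie on both sides of the TSS; the bar of Rab25 reaches over 20 kb to both sides and those of Rab9 and Rab5b to one side, and those of Rab2a, Rab8b and Rab26 begin downstream of the TSS.

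The 16 unmarked Rab genes lay at a median of 44.1 kb from the nearest peak, against 65.8 kb for all unmarked protein-coding genes. The distances ran from 4.01 kb at Rab27a to 591 kb at Rab32. The nearest peaks of Rab3b, Rab3c, Rab3d, Rab7b, Rab18, Rab20, Rab27a, Rab27b, Rab32, Rab36, Rab39b and Rab40b lay at promoters of other genes. A peak that overlapped the gene by at least 1 bp but lay outside every TSS window was found at 3 of 16 unmarked Rab genes (Rab27a, Rab37 and Rab39; 18.8%), against 9.14% of all unmarked protein-coding genes. At the marked Rab genes it was 8 of 43 (18.6%), against 25.1% of all marked ones, and at Rab4b and Rab40c such a peak overlapped only the 3′ end of the gene. Within 100 kb of the TSS, marked Rab genes had a median of 6 peaks and unmarked ones 3, against 5 and 1 at all protein-coding genes. Of the unmarked Rab genes, 12 had at least 1 peak within 100 kb, and Rab3c, Rab18, Rab27b and Rab32 had none.

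**Figure D3:**
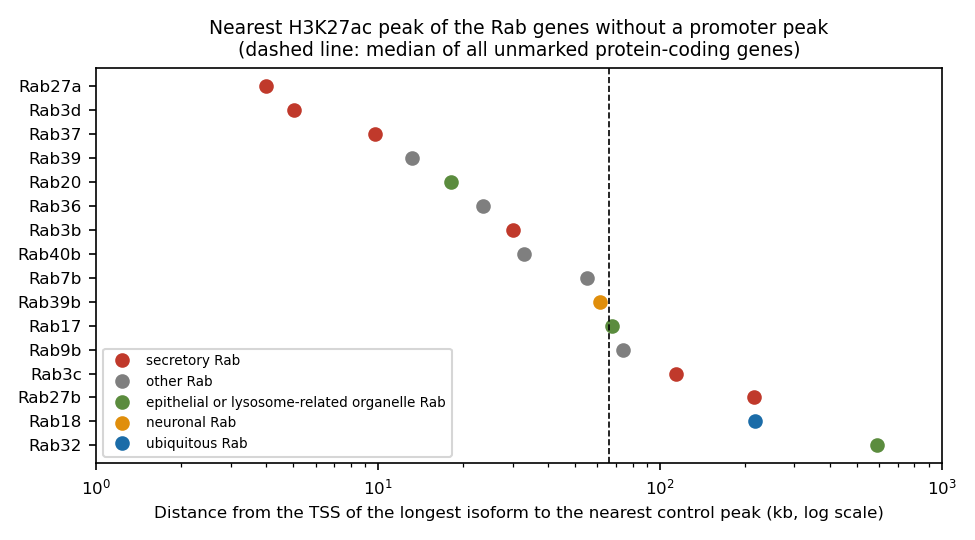
Distance from the TSS of the longest isoform to the nearest control peak (x axis, kb, logarithmic) for the 16 Rab genes without a promoter peak, coloured by group; the dashed line is the median of all unmarked protein-coding genes, 65.8 kb. Rab27a, Rab3d and Rab37, all secretory, have the nearest peaks, and Rab32, at 591 kb, the farthest.

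Among the 14 Rab numbers with more than 1 member, 31 genes in all, 8 numbers had every member marked (1, 2, 4, 5, 6, 8, 11 and 33), 2 had none (27 and 39) and 4 had both states. As single genes, 72.9% of all Rabs and 51.9% of all protein-coding genes were marked, and sets of paralogues in other families were not counted. The split numbers were 3 (Rab3a marked, and Rab3b, Rab3c and Rab3d not), 7 (Rab7 and not Rab7b), 9 (Rab9 and not Rab9b) and 40 (Rab40c and not Rab40b). Shown are 150 bases upstream of the start of the RefSeq transcript (GRCm38.p6), from bases outside annotated exons, for the Rab3 and Rab40 genes, with Rab5a as a marked ubiquitous member and Rab39b as an unmarked neuronal one. All are written 5′ to 3′ along the gene's strand, with every CpG dinucleotide in capitals.
Rab3a (marked, chr8:70754529-70754678, plus strand): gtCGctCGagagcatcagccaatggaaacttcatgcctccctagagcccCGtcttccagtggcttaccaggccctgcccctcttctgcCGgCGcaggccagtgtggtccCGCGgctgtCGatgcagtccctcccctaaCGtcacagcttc
Rab3b (unmarked, chr4:108878913-108879062, plus strand): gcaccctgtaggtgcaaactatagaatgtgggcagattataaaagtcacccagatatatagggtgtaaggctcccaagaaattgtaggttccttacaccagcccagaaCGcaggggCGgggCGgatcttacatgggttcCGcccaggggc
Rab3c (unmarked, chr13:110280207-110280356, minus strand): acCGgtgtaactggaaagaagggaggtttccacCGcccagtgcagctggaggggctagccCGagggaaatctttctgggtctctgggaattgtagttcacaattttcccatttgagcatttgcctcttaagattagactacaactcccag
Rab3d (unmarked, chr9:21918193-21918342, minus strand): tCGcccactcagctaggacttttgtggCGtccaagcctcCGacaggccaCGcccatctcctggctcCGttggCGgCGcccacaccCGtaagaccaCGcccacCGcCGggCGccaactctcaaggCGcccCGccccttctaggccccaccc
Rab40c (marked, chr17:25919728-25919877, minus strand): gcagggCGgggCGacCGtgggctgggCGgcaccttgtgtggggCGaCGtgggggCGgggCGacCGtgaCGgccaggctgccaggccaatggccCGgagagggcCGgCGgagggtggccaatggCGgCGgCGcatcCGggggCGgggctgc
Rab40b (unmarked, chr11:121388252-121388401, minus strand): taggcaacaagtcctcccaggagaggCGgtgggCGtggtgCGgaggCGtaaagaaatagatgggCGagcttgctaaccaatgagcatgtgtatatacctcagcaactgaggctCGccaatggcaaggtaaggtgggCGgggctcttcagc
Rab5a (marked, chr17:53479084-53479233, plus strand): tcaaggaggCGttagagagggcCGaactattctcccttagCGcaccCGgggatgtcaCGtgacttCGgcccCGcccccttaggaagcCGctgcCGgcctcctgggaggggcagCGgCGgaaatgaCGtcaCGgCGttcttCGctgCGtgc
Rab39b (unmarked, chrX:75578232-75578381, minus strand): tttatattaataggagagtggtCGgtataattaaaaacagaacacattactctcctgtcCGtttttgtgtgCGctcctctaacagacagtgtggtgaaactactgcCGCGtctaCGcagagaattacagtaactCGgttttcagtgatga
The 3 stretches of marked genes lay wholly inside a peak. No base of the others did, which the rule for an unmarked promoter fixes in advance, as they lie within 1 kb of a TSS. Rab3a, Rab5a and Rab40c held 9, 16 and 18 CpG dinucleotides with a GC content of 63.3, 66.0 and 80.0%. Of the unmarked genes, Rab3b, Rab3c, Rab39b and Rab40b held 4, 3, 7 and 7, but Rab3d held 14 at 70.0% GC, more than the marked Rab3a. In these stretches, Rab40 paralogues therefore differed in CpG number in the direction of their mark, and Rab3a and Rab3d did not. For the split pair of Rab9 and Rab9b, the 300 bases around the RefSeq start held 9 and 17 CpG dinucleotides, against the direction of the mark. Over the kilobase around the TSS with the highest CpG ratio, the marked member of each of these pairs had the higher ratio. The ratios were 0.74 and 0.65 at Rab3a and Rab3d, 0.69 and 0.43 at Rab9 and Rab9b, and 0.91 and 0.68 at Rab40c and Rab40b.

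Base composition was compared around the TSS with the highest CpG ratio of each gene, a choice made after the data were seen, over 1 kb, where the CpG ratio is the number of CpG dinucleotides divided by the number given by the C and G content. The 43 marked Rab promoters had a median ratio of 0.78 (0.29 to 1.09) and a median GC content of 62.4%, and the 16 unmarked ones 0.59 (0.24 to 0.76) and 55.8%. The 2 ranges overlapped. All protein-coding genes had medians of 0.77 and 60.1% if marked and 0.28 and 49.3% if unmarked. Most Rab promoters were rich in CpG, with a ratio of 0.6 or more at 41 of 59. Among these, 33 were marked (80.5%), against 81.0% of all protein-coding promoters with such a ratio. Within this class, 17 of 18 ubiquitous Rabs and 3 of 6 secretory or neuronal Rabs were marked. Between 0.4 and 0.6, 7 of 13 Rab promoters were marked (53.8%, against 45.9%). Below 0.4, 3 of 5 were (Rab19, Rab25 and Rab44), against 9.31% of all, and the peaks at Rab19 and Rab25 held TSS of other genes.

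**Figure D4:**
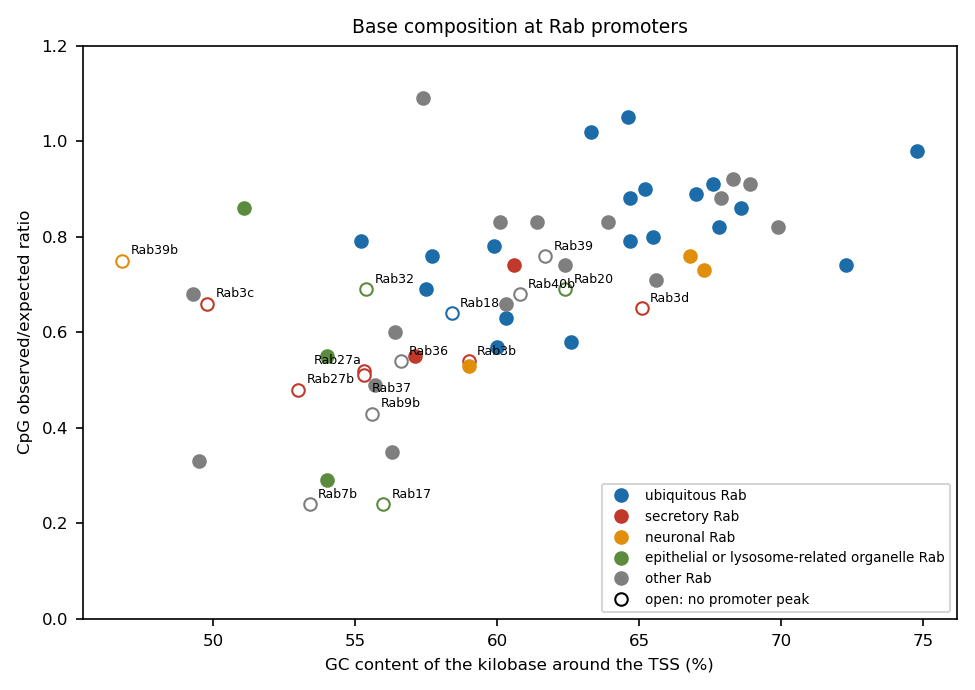
GC content (x axis, percent) and CpG ratio (y axis, observed over expected) of the 1 kb around the TSS with the highest CpG ratio of each of the 59 Rab genes, coloured by group. Filled points are promoters with a control H3K27ac peak and open, named points are those without; the open points lie at ratios of 0.24 to 0.76, overlapping the filled ones except for Rab7b and Rab17, both at 0.24, below every filled point.

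A gene with more annotated TSS has more windows in which a peak can fall. With a single TSS, 6 of 10 Rab genes were marked (60.0%), against 24.4% of all protein-coding genes, and with 2 to 3 it was 14 of 17 (82.4%, against 39.4%). With 4 to 6, the class of 23 Rab genes, 15 were marked (65.2%, against 66.3%), and with 7 or more it was 8 of 9 (88.9%, against 83.0%). The ubiquitous Rabs had a median of 3 TSS and the secretory Rabs of 4. Without the genes that have another TSS within 2 kb, 38 of 54 Rab promoters were marked (70.4%), against 45.5% of all, and the shares of ubiquitous and of secretory or neuronal Rabs were 94.1 and 41.7%. By length, 9 of 10 Rab genes under 10 kb, 26 of 35 between 10 and 50 kb and 8 of 14 of 50 kb or longer were marked, against 35.7, 59.9 and 62.5% of all genes. The long class held 6 of the 12 secretory or neuronal Rabs, of which 1 was marked (Rab6b).

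Promoters of 300 bases, from 250 before to 50 after the RefSeq start, were at hand for 48 of the 59 Rab genes and were searched on both strands for short motifs. For Rab genes the promoter nearest the TSS of the longest isoform was taken, and for other genes the first listed. The median number of CpG dinucleotides was 25 in marked and 16 in unmarked Rab promoters, against 7 in promoters of all genes. GGGCGG, a GC box, was found in 34 of 48 Rab promoters (70.8%), against 35.9% of 27025 promoters of all genes. Whether this difference follows from base composition was not tested. GGGCGG was found at 8 of 11 unmarked (72.7%) and at 26 of 37 marked Rab promoters (70.3%). CCAAT was found in 23 of 48 (47.9%, against 37.9%), in 11 of 17 ubiquitous and in 2 of 9 secretory or neuronal Rabs (Rab3a and Rab3c). TATAAA was found in 4 of 48 (Rab3b, Rab7, Rab39b and Rab42), against 14.2% of all. CACGTG was found in 5 (Rab5a, Rab20, Rab21, Rab23 and Rab24), TGACGTCA in 2 (Rab5a and Rab25) and GCGCATGC in 2 (Rab1a and Rab23), against 7.24, 1.88 and 2.80% of all promoters. The Rab5a stretch printed above holds both CACGTG and TGACGTCA. TTCAGCACC and GGACAGCG, parts of the RE1 element, were in none of the 48 and in 0.359 and 1.30% of all promoters. No motif contains another, and a match is a description of the sequence only.

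Genes that regulate Rab proteins were read against the 51.9% of all protein-coding genes with a marked promoter. The 7 genes listed for escort, GDP dissociation inhibition and prenylation (Gdi2, Chm, Chml, Rabggta, Rabggtb, Rabif and Rabac1) were marked, with peaks of 1104 to 12670 bp. Of 43 genes of GEFs and their subunits, 38 were marked (88.4%, 75.5 to 94.9%), and Rin1, Mon1a, Rab3gap1, Dennd1c and Dennd2d were not. Rab3gap1 and Rab3gap2 form the complex that activates Rab18 and inactivates Rab3; Rab3gap2 had a peak of 1768 bp and the nearest peak to Rab3gap1 was 82.7 kb away. Of 33 GAP genes, 29 were marked (87.9%, 72.7 to 95.2%), all but Evi5l, Tbc1d8b, Tbc1d16 and Tbc1d30. The GEF and GAP genes had a median of 7 TSS, more than the median of 3 over all protein-coding genes. Of all genes with 7 or more TSS, 83.0% were marked. Median CpG ratios were 0.77 for the escort, GDP dissociation inhibition and prenylation list, 0.78 for GEFs and 0.80 for GAPs. The median over all protein-coding genes was 0.63, and 81.0% of those with a ratio of 0.6 or more were marked.

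Effectors of endosomal and Golgi Rabs were marked at 25 of 28 promoters (89.3%, 72.8 to 96.3%), among them Eea1, Rabep1, Appl1, Golga2, Uso1 and all 5 Rab11fip genes, and Rilpl2, Micall2 and Pik3c3 were not. Effectors of secretory Rabs were marked at 5 of 17 (29.4%, 13.3 to 53.1%), an interval that includes the 51.9% of all protein-coding genes. The endosomal and Golgi list had a median CpG ratio of 0.77 and a median of 5 TSS, and the secretory list 0.65 and 4. All protein-coding genes had 0.63 and 3, and 81.0% of those with a ratio of 0.6 or more were marked. Rims2, Rims3, Unc13a, Unc13b and Unc13d, which organise or prime vesicles at release sites, carried peaks of 387 to 15619 bp, whereas Rims1 and Rims4 of the same family and Doc2b had no promoter peak. The rabphilin genes Rph3a and Rph3al, all 5 Sytl genes of synaptotagmin-like proteins, and Mlph and Myrip, which link Rab27 to myosin motors, had none either. The nearest peaks of these 12 unmarked effector genes lay between 2.61 kb (Sytl3) and 272 kb (Rims1).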

How the data were processed

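The deposited list gives base positions (unit other), with starts counted from 0; printed starts are counted from 1. Per the labels and methods, the authors trimmed reads with Cutadapt, aligned them with BWA to mouse mm10 together with a human genome, and dropped duplicates (Picard 2.9.1) and reads of low mapping quality (SAMtools 1.4). LanceOtron peaks within 2 kb of each other were joined, and peaks that were low or far from ATAC-seq summits were removed. Both replicates share 1 list. Depth cannot be read from the list, which limits what an unmarked promoter shows.

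Peaks were compared with GENCODE M21 (GRCm38), of the same build; 0 peaks lay past a chromosome end. The TSS of all isoforms set the promoters. Shares have 95% Wilson intervals and a difference of shares a Newcombe interval, for counting error only. With 1 pooled list there were no tests and no comparison with treated samples. CpG and GC were taken over 500 bp on either side of the TSS. The TSS with the highest CpG ratio was chosen after the data were seen, since the longest isoform of Rab18 starts at a CpG-poor site (ratio 0.17). Promoter sequences come from RefSeq (GRCm38.p6); Rab2a, Rab4a, Rab7b, Rab18, Rab26, Rab27b, Rab30, Rab36, Rab37, Rab38 and Rab44 were not matched. The scripts were tested on simulated data. Python 3.11.15, numpy 2.4.6, scipy 1.17.1 and matplotlib 3.10.9 were used.

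The members and all gene lists were chosen with earlier results of these data known. Values in full were given for all ubiquitous, secretory and neuronal Rabs, the 3 widest promoter peaks and paralogues that differ in state; other members and regulators named with values were chosen after their values were seen. Alternatives were windows of 500 bp or 2 kb, the TSS itself, the longest isoform, protein_coding transcripts, an overlap of 500 bp, peaks of at least 1 kb, genes without another TSS within 2 kb, secretory or neuronal members alone, and the narrowest peak per gene. 1 gene was left out of a regulator list and of its count and is not reported here.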

Additional observations from a re-analysis of the deposited data

How the results depend on the processing

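Across the windows, isoform rules, overlaps and peak widths tried, 467 states of single Rab promoters were recomputed and 3 changed, all to unmarked: Rab2a and Rab8b when the TSS itself had to lie inside a peak, and Rab8b with peaks of at least 1 kb. The share of marked Rabs ranged from 69.5 to 72.9%, that of the ubiquitous Rabs from 90.0 to 95.0%, and that of all protein-coding genes from 45.5 to 52.7%. The share of the secretory or neuronal Rabs was 41.7% under every one of these settings, and the difference between the groups was 48.3 to 53.3 points. It depended on which members were counted. With secretory members alone the share was 25.0% and the difference 70.0 points, and with neuronal members alone they were 75.0% and 20.0 points; the cause was not tested. The median width of 2669 bp was 2399 bp with the narrowest peak per gene and 2559 bp with the longest isoform. The TSS with the highest CpG ratio was chosen after seeing the data. At the TSS of the longest isoform, the first choice, a ratio of 0.6 or more was found at 39 Rab genes, of which 32 were marked (82.1%, against 81.9% of all protein-coding genes), and a ratio below 0.4 at 7, of which 3 were (42.9%, against 15.7%). No paired analysis was possible because the list pools both control replicates, and for the same reason no replicate could be left out.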
